A study of Caenorhabditis elegans with 12 samples.

Results

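The interaction between a daf-2 mutation and combined spr-4 and spr-3 mutations was examined by RNA sequencing of whole Caenorhabditis elegans worms. All 12 of the 12 libraries of the series entered it, as a 2 by 2 design with 3 biological replicates in each of 4 groups. The libraries labelled spr-4;spr-3;daf-2 are called triple-labelled here and were set against the daf-2 mutant. The spr-4;spr-3 double mutant, called the spr double mutant here, was set against N2, the wild-type laboratory strain. The interaction is the first of these log2 differences minus the second, so that 0 means the joint change equals the sum of the single changes, and a positive value means that the triple-labelled libraries lay above that sum. All groups were grown at 20 °C and collected at day 2 of age, 24 h after the L4 stage, as 100 pooled worms a sample. The labels give no alleles, no strain names and no sex, and whole animals hold every tissue together with the germ line and any embryos in the uterus. The title of the series places the comparison in work on lifespan, neural excitation and REST.

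DAF-2 is the worm's insulin/IGF-1 receptor, and lowered DAF-2 signalling lets the transcription factor DAF-16 enter the nucleus, where it raises stress defence and metabolic genes. SPR-3 and SPR-4 are zinc-finger proteins that were found as suppressors of presenilin mutations, resemble the mammalian repressor REST, and are known to repress the presenilin gene hop-1. A 2 by 2 design asks whether the effect of one mutation depends on the other. In whole worms, fewer cells of a type and less RNA per cell cannot be told apart, and hermaphrodites of this age carry sperm made before adulthood beside growing oocytes.

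Library totals ran from 30837773 to 48894725 counts, and 15764 genes passed the filter on low counts. The daf-2 libraries stood apart in ribosomal RNA, which took 0.145% to 0.176% of their counts, against 0.0326% to 0.0442% in the other 9 libraries. Its part in the results was not tested. Defining markers of neurons, body wall muscle, pharynx, intestine, epidermis and oocytes had reads in every group, and 4 of the 34 sperm markers had no read in at least 1 group.

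The genes named in the genotypes were read first, as CPM, the read count scaled for library size. spr-3 (chromosome X, 4514093 to 4516895, build WBcel235 here and below) had 16.3, 17.7 and 15.2 CPM in the triple-labelled libraries, against 16.6, 16.7 and 19.2 CPM in daf-2. It had 8.7, 10.1 and 8.84 CPM in the spr double mutant, against 18.2, 17.5 and 16.1 CPM in N2. Only the spr double mutant lay apart, and spr-3 therefore had an interaction of its own (0.81 ± 0.12 SE on the log2 scale, edgeR adjusted p = 2.7e-05). The triple-labelled libraries thus do not show the lowered spr-3 of the double mutant, and whether their label or the alleles used lie behind this cannot be told apart here, so the label itself may be wrong. Since all 3 share this, the interaction cannot be computed without them. Each difference called an spr effect in the daf-2 background is therefore only the triple-labelled libraries minus daf-2. spr-4 averaged 61.1 ± 3.15 CPM in the triple-labelled libraries and 70.8 ± 3.06 CPM in daf-2, and 64.1 ± 1.42 CPM in the spr double mutant and 76.1 ± 1.75 CPM in N2 (SD, n = 3). Its fall was called in both backgrounds and its interaction of 0.03 was not called (edgeR adjusted p = 0.73). Neither daf-2 (0.19, edgeR adjusted p = 0.13) nor hop-1 (-0.13, adjusted p = 0.099) had a called interaction. No rise of hop-1 was called in the triple-labelled libraries against daf-2 (-0.05, edgeR adjusted p = 0.32) or in the spr double mutant against N2 (0.08, adjusted p = 0.12). A mutation need not change the count of its transcript, so these counts do not settle the genotypes.

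The interaction was called in 4523 of the 15764 genes (28.7%) at a Benjamini-Hochberg adjusted p below 0.05 in edgeR's quasi-likelihood test. Positive and negative calls were similar in number, 2224 (14.1%) and 2299 (14.6%), but unlike in size. The median called value was 0.926 on the log2 scale for positive genes and -0.345 for negative genes. Past a 2-fold departure from the sum of the single changes stood 1063 positive and 370 negative genes (6.74% and 2.35% of all tested), and past 2 log2 units stood 621 positive and 85 negative genes. With libraries scaled by total counts instead of TMM factors, the median interaction of all genes moved to 0.13 from 0.01 and 77.5% of the calls were positive (3632 positive and 1054 negative). The near-even split thus holds for TMM scaling, and small list medians below are to be read against that shift.

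The positive genes were mostly those that rose in the triple-labelled libraries against daf-2, fell in the spr double mutant against N2, or did both. Of the 2224 positive genes, 725 were called lower in the spr double mutant than in N2 with no call in the daf-2 background, 628 were called higher in the triple-labelled libraries than in daf-2 with no call against N2, and 512 met both calls with opposite signs. Those 512 genes had a median interaction of 3.118. Of the 2299 negative genes, 786 were called higher in the spr double mutant than in N2 with no call in the daf-2 background, 723 were called lower in the triple-labelled libraries than in daf-2 with no call against N2, and 349 met both calls with opposite signs, at a median of -0.494. Across the 15764 genes the spr effects in the 2 backgrounds, which share no library, had a Pearson correlation of 0.164, a description only, since genes are not independent replicates. The call rates behind these classes were 47% of genes for the triple-labelled libraries against daf-2 and 46.5% for the spr double mutant against N2.

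**Figure D1:**
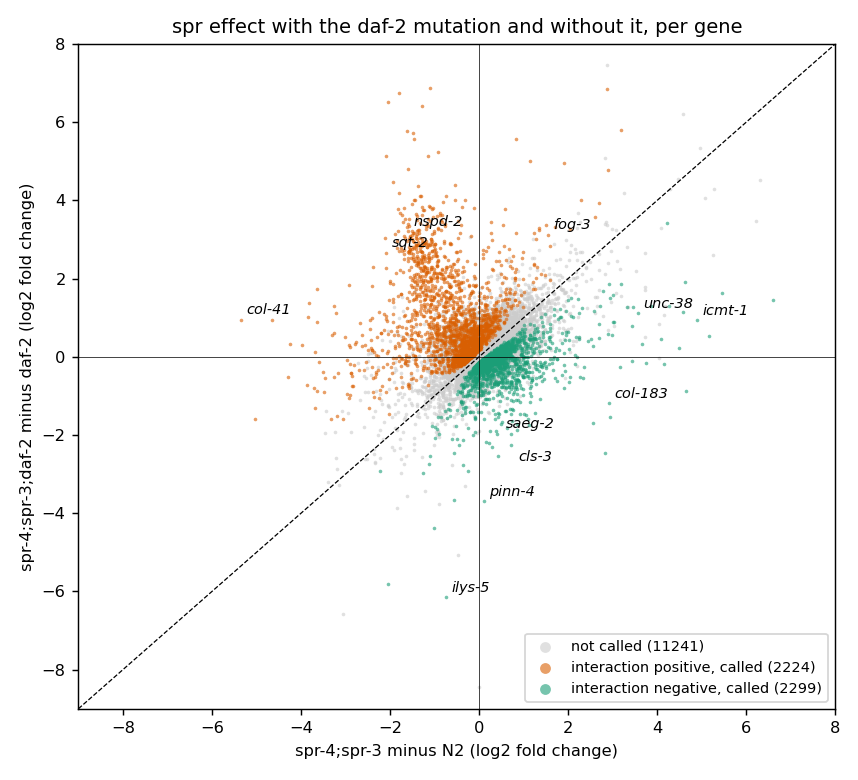
Each point is one of 15764 genes, with the log2 fold change of the triple-labelled libraries over daf-2 on the y axis and that of the spr double mutant over N2 on the x axis. Genes on the dashed line have no interaction; 2224 called positive genes lie above it, with a dense arm of genes higher in the triple-labelled libraries than in daf-2 and lower in the spr double mutant than in N2, and 2299 called negative genes lie below.

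Low-level genes carried the positive calls and high-level genes the negative ones. Genes were ranked by mean level and put into 4 bins of equal size. In the lowest bin 19.74% were positive and 4.24% negative, while in the highest bin 8.15% were positive and 27.53% negative. In the highest bin 4 genes were positive and 21 negative past 2-fold, against 747 positive and 159 negative in the lowest bin. At low counts only large departures can pass the test, so the sizes of called values are not comparable between the bins.

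Among the 12 largest positive values that met the naming rule, 8 were msp, msd or nspd genes, and each of the 8 had its lowest level in daf-2. The sperm gene nspd-2 (WBGene00010633, IV, 9844060 to 9844272) had 2.12, 1.57 and 1.93 CPM in the triple-labelled libraries, against 0.256, 0.0878 and 0.248 CPM in daf-2. The spr double mutant had 1.89, 2.79 and 3.26 CPM, against 9.35, 7.38 and 7.13 CPM in N2. The 3 daf-2 libraries lay below and the 3 N2 libraries above all others. The change was 3.21 log2 units in the triple-labelled libraries against daf-2 and -1.59 in the spr double mutant against N2, an interaction of 4.79 ± 0.35 (SE, edgeR adjusted p = 1e-08).

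msp-49 (WBGene00003442, II, 5194366 to 5194749), a gene for the major sperm protein that forms the sperm cytoskeleton, had 1.1, 0.559 and 1 CPM in the triple-labelled libraries, against 0.153, 0.117 and 0.11 CPM in daf-2. It had 1.99, 1.76 and 2.03 CPM in the spr double mutant, against 8, 6.87 and 5.89 CPM in N2. All 4 groups were apart, with daf-2 lowest and N2 highest. The joint change of the triple-labelled libraries from N2 was -2.95 log2 units, where the single changes sum to -7.58 (interaction 4.63 ± 0.38 SE, edgeR adjusted p = 1.8e-08).

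ttbk-8.2, of a family related to tau tubulin kinases, averaged 1.38 ± 0.253 CPM in the triple-labelled libraries and 0.0976 ± 0.0705 CPM in daf-2, and 1.94 ± 0.464 CPM in the spr double mutant and 4.56 ± 0.736 CPM in N2 (SD, n = 3), an interaction of 4.98 ± 0.41 (SE, edgeR adjusted p = 2.1e-08). Of the 8 ttbk genes tested, 6 were positive and none negative, with a median of 2.79. ttbk-4 was called higher in both backgrounds. It averaged 4.78 ± 1.46 CPM in the triple-labelled libraries and 0.08 ± 0.0493 CPM in daf-2, and 10.8 ± 0.448 CPM in the spr double mutant and 1.17 ± 0.152 CPM in N2. Its interaction was 2.62 ± 0.52 (SE, edgeR adjusted p = 0.00097) on the log2 scale and -4.885 CPM as a difference of linear differences, so its sign depends on the scale. This family was chosen after its values were seen.

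Cuticle collagens were also among the largest positive values. sqt-2 (WBGene00005017, II, 23325 to 24458), a cuticle collagen gene whose mutants have altered body shape, had 3.35, 2.82 and 2.83 CPM in the triple-labelled libraries, against 0.614, 0.527 and 0.276 CPM in daf-2. It had 4.65, 4.54 and 5.49 CPM in the spr double mutant, against 24, 21.2 and 17.5 CPM in N2. The groups did not overlap, and the order from low to high was daf-2, triple-labelled, spr double mutant and N2 (interaction 4.75 ± 0.25 SE, edgeR adjusted p = 1e-10). col-41 (WBGene00000618, X, 15175032 to 15176481) had the largest of these 12 values, 6.29 ± 0.61 (SE, edgeR adjusted p = 2e-07), but another pattern. It had 0.116, 0.24 and 0.293 CPM in the triple-labelled libraries, against 0.153, 0.0585 and 0.11 CPM in daf-2, and 0.438, 0.352 and 0.418 CPM in the spr double mutant, against 19.5, 16.2 and 13.6 CPM in N2. N2 alone was high, and the triple-labelled and daf-2 libraries overlapped. Either mutation went with a fall (-7.19 for daf-2 and -5.35 for the spr mutations, each against N2, in log2 units), and the joint change of -6.24 was far from the sum of -12.54. The daf-2 libraries held only 6, 2 and 4 reads of col-41, and the triple-labelled libraries 5, 9 and 12. A joint fall as large as the sum could not have been read at such counts, so the size of this interaction is limited by the floor.

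**Figure D2:**
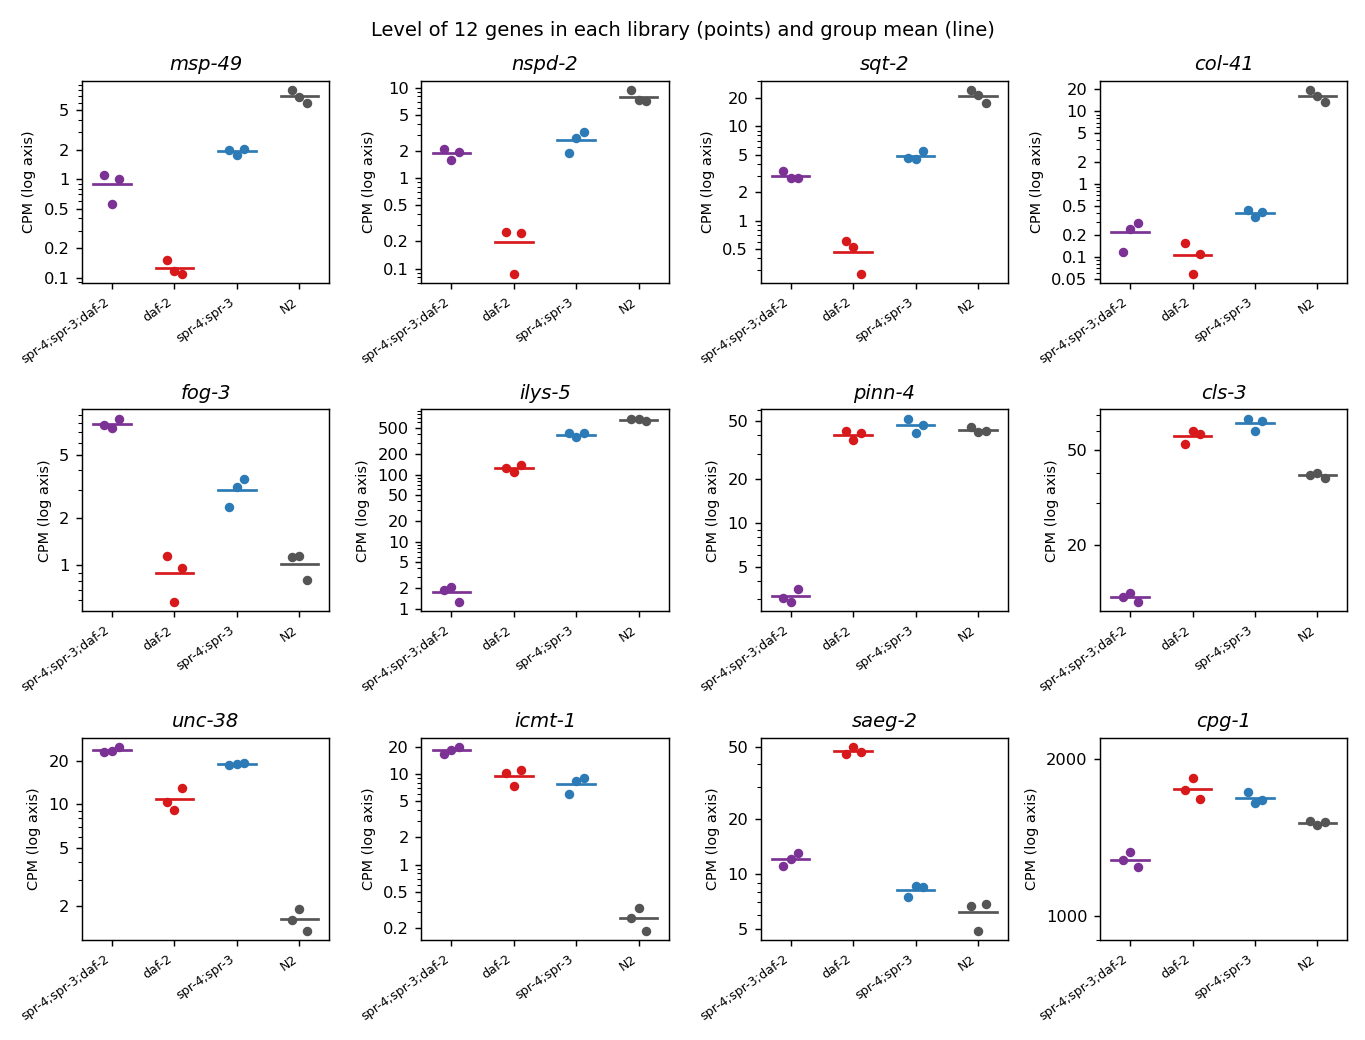
Each panel shows one gene in CPM on a log axis, with a point for each of 12 libraries and a line at the mean of each group of 3. msp-49, nspd-2 and sqt-2 are lowest in daf-2 and highest in N2, pinn-4 and ilys-5 are lowest in the triple-labelled libraries, saeg-2 is highest in daf-2, and unc-38 and icmt-1 are lowest in N2.

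The major sperm protein genes moved together. Of 31 listed msp genes 27 passed the filter on low counts, and all 27 had a positive interaction, where 14.1% of all genes did, with a median of 4.28. All 27 were called higher in the triple-labelled libraries than in daf-2 and all 27 lower in the spr double mutant than in N2. Summed over the list, the level was 46.3, 24.6 and 40.7 CPM in the triple-labelled libraries, against 8.77, 5.44 and 5.82 CPM in daf-2. The sums in the spr double mutant were 56.4, 65.6 and 83.4 CPM, against 224, 188 and 160 CPM in N2. The 4 groups did not overlap in these sums. In 26 of the 27 genes the daf-2 libraries were below the other 9, as in 6.6% of all genes, and in all 27 the N2 libraries were above the other 9, as in 17.7% of all genes. The tested msp genes lie on chromosomes II (10 genes) and IV (17 genes), and many are near-identical copies whose single counts are uncertain, since the handling of reads that match several places is not given in the sources used here.

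Genes used in making, packing or activating sperm other than msp shared the direction. Of 74 listed, 56 were tested, 40 had a positive and 1 a negative interaction, and the median was 2.47. Over all genes 14.1% were positive and 14.6% negative. nspd-1 (4.89) and msd-4 (4.65) were among the largest values. Of the genes with few reads in daf-2, msd-2 averaged 0.537 ± 0.181 CPM in the triple-labelled libraries and 0.0372 ± 0.0185 CPM in daf-2, and 1.04 ± 0.0795 CPM in the spr double mutant and 3.63 ± 0.515 CPM in N2, at 5.58 ± 0.5 (SE, edgeR adjusted p = 5.7e-08). nspd-3 and msp-10 had 2 reads in the 3 daf-2 libraries together, so that no fold is given for them.

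The switch genes of sperm fate had another pattern than the sperm genes. fog-3 (WBGene00001483, I, 10016765 to 10018121), a Tob-family protein needed for germ cells to become sperm, had 7.78, 7.45 and 8.52 CPM in the triple-labelled libraries, against 1.15, 0.585 and 0.966 CPM in daf-2. It had 2.36, 3.14 and 3.55 CPM in the spr double mutant, against 1.13, 1.14 and 0.807 CPM in N2. Both spr-labelled groups were above daf-2 and N2, which overlapped. The rise was 3.12 log2 units in the daf-2 background and 1.55 with daf-2 intact (interaction 1.57 ± 0.28 SE, edgeR adjusted p = 0.00028). fog-1, a cytoplasmic polyadenylation element binding protein needed for the same fate, averaged 46.8 ± 2.98 CPM in the triple-labelled libraries and 28.3 ± 1.36 CPM in daf-2, and 31 ± 1.74 CPM in the spr double mutant and 27.9 ± 0.714 CPM in N2 (0.58 ± 0.083 SE, edgeR adjusted p = 2.6e-05). Of the 42 germ cell fate and meiosis genes 5 were positive and 2 negative, below the 14.1% and 14.6% of all genes, with a median of 0.04. The poly(A) polymerase gene gld-4 (0.34) and the Nanos gene nos-3 (0.25) were among the positive ones.

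**Figure D3:**
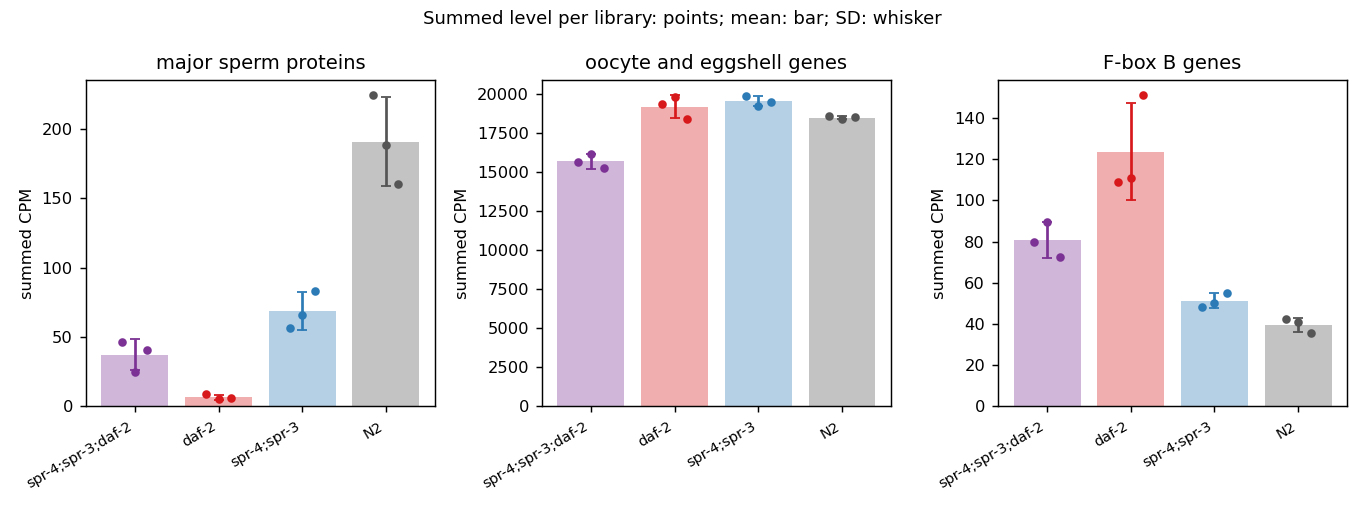
Bars show the mean summed CPM of 3 libraries a group, whiskers the SD and points the libraries. The sums cover all listed major sperm protein genes, oocyte and eggshell genes and F-box B genes, tested or not. The sperm sum is lowest in daf-2 (5.44 to 8.77 CPM), the oocyte sum lowest in the triple-labelled libraries (15238 to 16175 CPM), and the F-box B sum highest in daf-2 (109 to 151 CPM).

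Oocyte and yolk genes ran the other way, with small values. Of 32 oocyte surface, eggshell and maternal genes 22 were negative and none positive, against 14.6% negative over all genes, with a median of -0.26 (-0.13 under total-count scaling, which moves all genes by about 0.13). In the bin of highest mean level 27.53% of genes were negative. In 25 of the 32 the triple-labelled libraries were below the other 9, where 13.4% of all genes were. cpg-1 (WBGene00000465, III, 4489359 to 4491392), a chondroitin proteoglycan of the eggshell, had 1284, 1325 and 1242 CPM in the triple-labelled libraries, against 1751, 1844 and 1677 CPM in daf-2. It had 1734, 1650 and 1671 CPM in the spr double mutant, against 1523, 1499 and 1515 CPM in N2. The triple-labelled libraries were lowest, and daf-2 and the spr double mutant overlapped above N2 (interaction -0.61 ± 0.067 SE, edgeR adjusted p = 9.2e-07). The eggshell genes perm-4 (-0.56), cpg-3 (-0.55) and perm-2 (-0.55) were close to it.

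All 6 vitellogenins, the yolk lipoproteins made in the intestine for oocytes, had negative interactions, with a median of -0.76. vit-4 (WBGene00006928, X, 3558769 to 3563965) had 835, 871 and 709 CPM in the triple-labelled libraries, against 1496, 1465 and 1769 CPM in daf-2. It had 1964, 1791 and 1958 CPM in the spr double mutant, against 1800, 1897 and 1812 CPM in N2. The triple-labelled libraries were below all others, and the spr double mutant overlapped N2 (interaction -1.02 ± 0.11 SE, edgeR adjusted p = 3e-06). The members differed in the spr effect with daf-2 intact: vit-5 rose by 0.40 (edgeR adjusted p = 2.9e-05), vit-1 fell by 0.49 (edgeR adjusted p = 0.0009) and vit-4 had 0.05, which was not called (edgeR adjusted p = 0.6).

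Protein synthesis and turnover genes shared small negative values. In the bin of highest mean level 27.53% of genes were negative, and the lists here were not matched for level. Of 33 proteasome subunit genes 23 were negative, as were 14.6% of all genes, and none positive. Their median was -0.18, or -0.06 under total-count scaling. In 28 of the 33 the triple-labelled libraries were below the other 9, as in 13.4% of all genes. rpn-3, of the regulatory lid, averaged 344 ± 10.4 CPM in the triple-labelled libraries and 418 ± 10.8 CPM in daf-2, and 416 ± 10.2 CPM in the spr double mutant and 419 ± 7.23 CPM in N2 (-0.27 ± 0.057 SE, edgeR adjusted p = 0.0014). Of 81 cytosolic ribosomal protein genes 40 were negative and none positive (median -0.23, or -0.11 under total-count scaling). Largest in size were rps-28 (-0.45), rpl-25.2 (-0.42) and rpl-43 (-0.37). Here the departure lay in the other background: 55 of the 81 were called higher in the spr double mutant than in N2, and 2 higher and 8 lower in the triple-labelled libraries than in daf-2. The summed level spread within daf-2 more than within other groups, from 100980 to 122478 CPM, against 109010 to 109292 CPM in the triple-labelled libraries. Of 45 nuclear oxidative phosphorylation genes 10 were negative (22.2%) and 1 positive, with a median of -0.09 that became 0.03 under total-count scaling. The positive one, cyc-2.2, a cytochrome c gene, had the pattern of the sperm genes (0.489 ± 0.126 CPM in the triple-labelled libraries and 0.0348 ± 0.0389 CPM in daf-2, and 0.77 ± 0.164 CPM in the spr double mutant and 2.56 ± 0.382 CPM in N2). Of 45 histone genes 16 were negative and 1 positive (median -0.48). The linker histone gene his-24 averaged 32.4 ± 2.04 CPM in the triple-labelled libraries and 68 ± 6.77 CPM in daf-2, and 23 ± 3.38 CPM in the spr double mutant and 20.5 ± 2.4 CPM in N2 (-1.24 ± 0.16 SE, edgeR adjusted p = 0.00011). Core histone genes are near-identical copies, and their single values are uncertain.

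Many further negative genes were highest in daf-2. F-box proteins of the B and C families and Skp1-related proteins are parts of ubiquitin ligases in which the F-box protein picks the substrate. These families were chosen after their values were seen. Over all genes 14.6% were negative and 14.1% positive. Of 91 F-box B genes 34 were negative and none positive (median -0.97), and in 47 of them the daf-2 libraries were above the other 9, where 4.5% of all genes were. Summed over all listed F-box B genes, the level was 109 to 151 CPM in daf-2 and 72.6 to 89.7 CPM in the triple-labelled libraries. It was 48.2 to 55.2 CPM in the spr double mutant and 35.4 to 42.3 CPM in N2, so the triple-labelled libraries lay between. Of 33 F-box C genes 16 were negative and none positive (median -0.69). fbxb-41 (WBGene00019703, II, 1041318 to 1042327) had 1.84, 2.1 and 1.27 CPM in the triple-labelled libraries, against 4.3, 4.6 and 6.35 CPM in daf-2. It had 0.911, 1.35 and 1.25 CPM in the spr double mutant, against 0.913, 1.02 and 0.7 CPM in N2. The daf-2 libraries alone were high, and the spr double mutant overlapped both the triple-labelled and the N2 libraries (interaction -1.97 ± 0.32 SE, edgeR adjusted p = 9.6e-05).

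Genes of the skr and btb families, whose proteins join substrates to ubiquitin ligases, had 15 negative and 2 positive members among 33 tested (median -0.32). skr-12 averaged 5.83 ± 0.937 CPM in the triple-labelled libraries and 21.7 ± 1.03 CPM in daf-2, and 3.71 ± 0.497 CPM in the spr double mutant and 3.13 ± 0.422 CPM in N2 (-2.14 ± 0.18 SE, edgeR adjusted p = 2.1e-08). btb-11 had -2.28 ± 0.24 (SE, edgeR adjusted p = 6e-07). Of 27 sdz genes, named as SKN-1 dependent genes of the early embryo, 11 were negative and 1 positive (median -0.71). Summed over all listed sdz genes, the triple-labelled libraries were highest, at 233 to 243 CPM against 204 to 212 CPM in daf-2. The spr double mutant had 152 to 166 CPM and N2 109 to 116 CPM. The positive one, sdz-24, averaged 11.2 ± 1.55 CPM in the triple-labelled libraries and 21.1 ± 1.9 CPM in daf-2, and 2.47 ± 0.477 CPM in the spr double mutant and 12.9 ± 2.05 CPM in N2, so that it fell in both backgrounds and by more with daf-2 intact (1.47 ± 0.2 SE, edgeR adjusted p = 6.9e-05).

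Part of the F-box genes lay close together. Between 0.5 and 2 Mb of chromosome II, 44 of 233 tested genes were negative past 2-fold (18.9%), against 326 of the 15531 genes elsewhere (2.1%). Of those 44 genes 24 were F-box B or C genes, of 53 such genes tested there. Of the 34 negative F-box B genes 22 were on chromosome II, where 52 of the 91 tested F-box B genes lie. Most tested members of the family, called or not, are thus on that chromosome. The other negative F-box B genes were spread over I, III, IV, V and X. The window was chosen after the values were seen, and family members there are alike in sequence.

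Among the named genes the largest negative value was that of ilys-5 (WBGene00017691, X, 6533490 to 6536840), an invertebrate-type lysozyme gene. It had 1.91, 2.13 and 1.25 CPM in the triple-labelled libraries, against 126, 109 and 137 CPM in daf-2. It had 416, 360 and 412 CPM in the spr double mutant, against 684, 679 and 627 CPM in N2. All 4 groups were apart, and the triple-labelled libraries were far below the rest. The change was -6.14 log2 units in the triple-labelled libraries against daf-2 and -0.74 in the spr double mutant against N2, an interaction of -5.40 ± 0.18 (SE, edgeR adjusted p = 3.5e-09). In linear CPM the fall was larger with daf-2 intact, and the difference of differences was 145.3 CPM, the opposite sign.

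pinn-4 (WBGene00012996, II, 13402980 to 13404614), of the parvulin-type prolyl isomerase family, had 3.03, 2.85 and 3.49 CPM in the triple-labelled libraries, against 42.8, 36.9 and 41.4 CPM in daf-2. The spr double mutant had 52.1, 41.8 and 47.2 CPM, against 45.7, 42.4 and 42.8 CPM in N2. Only the triple-labelled libraries were low, and the remaining 3 groups overlapped. Neither single mutation had a called effect (0.11, edgeR adjusted p = 0.24 for the spr mutations, and -0.11, adjusted p = 0.19 for daf-2), while the joint change was -3.80 (interaction -3.79 ± 0.12 SE, edgeR adjusted p = 3.9e-14).

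cls-3 (WBGene00013847, III, 9186558 to 9191109), of the CLASP family of microtubule-binding proteins, had 12.1, 12.6 and 11.5 CPM in the triple-labelled libraries, against 52.8, 60 and 58.4 CPM in daf-2. It had 67.5, 60.2 and 65.8 CPM in the spr double mutant, against 39.2, 39.8 and 38.1 CPM in N2. Each single mutation went with a rise (0.55 for daf-2 and 0.72 for the spr mutations), while the joint change of the triple-labelled libraries from N2 was -1.69 (interaction -2.97 ± 0.082 SE, edgeR adjusted p = 2.5e-16). pinn-4 and cls-3 are on different chromosomes.

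saeg-2 (WBGene00011964, III, 9240363 to 9242514), whose product acts with SAEG-1 below the cGMP-dependent kinase EGL-4, showed the pattern of the F-box genes. It had 11.1, 12.1 and 13 CPM in the triple-labelled libraries, against 45.5, 49.6 and 46.4 CPM in daf-2, and 7.52, 8.59 and 8.51 CPM in the spr double mutant, against 6.71, 4.91 and 6.89 CPM in N2. The daf-2 libraries alone were high (interaction -2.37 ± 0.14 SE, edgeR adjusted p = 1.1e-10). The ribosomal RNA gene rrn-3.1 had this shape too, at 360 ± 47.7 CPM in the triple-labelled libraries and 1626 ± 136 CPM in daf-2, and 388 ± 55.5 CPM in the spr double mutant and 349 ± 27 CPM in N2 (-2.33 ± 0.18 SE, edgeR adjusted p = 1e-05). Both ribosomal RNA genes that passed the filter, of 20 listed, were negative. The kit selects mRNA by its poly(A) tail, so this share reads what passed the selection.

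In other large negative genes N2 stood low, and either mutation came with a higher level. unc-38 (WBGene00006774, I, 4897620 to 4900974), an alpha subunit of the levamisole-sensitive acetylcholine receptor of muscle, had 22.9, 23.2 and 24.8 CPM in the triple-labelled libraries, against 10.4, 9.19 and 12.9 CPM in daf-2. It had 18.7, 19 and 19.4 CPM in the spr double mutant, against 1.59, 1.9 and 1.35 CPM in N2. The 4 groups were apart. The rise was 1.12 log2 units in the triple-labelled libraries against daf-2 and 3.57 in the spr double mutant against N2 (interaction -2.44 ± 0.16 SE, edgeR adjusted p = 8.3e-10). Its neighbour icmt-1 (I, 4901918 to 4903264), an isoprenylcysteine carboxyl methyltransferase gene 944 bp away, averaged 18.2 ± 1.66 CPM in the triple-labelled libraries and 9.47 ± 1.89 CPM in daf-2, and 7.75 ± 1.58 CPM in the spr double mutant and 0.259 ± 0.0715 CPM in N2 (-3.97 ± 0.33 SE, edgeR adjusted p = 6.5e-07). In linear CPM its difference of differences was 1.231 CPM and not called (adjusted p = 0.549). Reads that run past the end of one of these neighbours cannot be told apart from reads of the other where the strand setting of the counting is not given.

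dpy-14 (-3.44) and col-183 (-4.10) shared the low N2 level, with col-183 at 3.78 ± 0.346 CPM in the triple-labelled libraries and 8.58 ± 2.52 CPM in daf-2, and 1.69 ± 0.775 CPM in the spr double mutant and 0.223 ± 0.117 CPM in N2. Both col-50 and col-161, further collagen genes, changed sign on the linear scale, where col-50 (-2.65 on the log2 scale) gave 3.87 CPM and col-161 (-3.37) gave 4.219 CPM, the second not called (adjusted p = 0.0817).

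**Figure D4:**
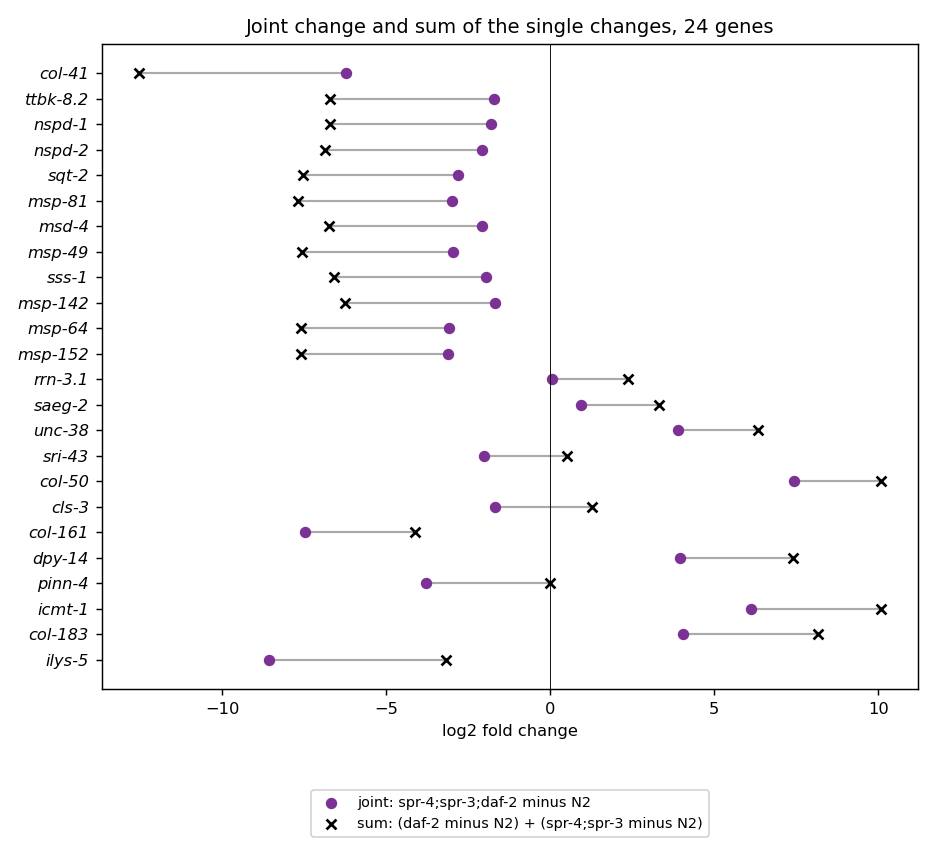
For the 12 largest positive and 12 largest negative interactions under the naming rule, the filled circle is the joint log2 change of the triple-labelled libraries from N2 and the cross is the sum of the daf-2 and spr changes from N2. The 12 positive genes have the circle to the right of the cross, as for msp-49 at -2.95 and -7.58, and the 12 negative genes have it to the left, as for pinn-4 at -3.80 and -0.01.

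Genes whose spr effects were called with opposite signs were also ranked by the smaller of their effects. Higher in the triple-labelled libraries than in daf-2 and lower in the spr double mutant than in N2 were sqt-2, msp-49 and nspd-2, described above, and msp-64 (4.51), msp-77 (4.45) and msp-81 (4.70). In the reverse direction stood col-183, the chemoreceptor gene sri-43, the F-box gene fbxc-51, the ribonuclease H gene rnh-1.3, the solute carrier gene slc-17.9 and the long noncoding RNA linc-6. sri-43 averaged 0.544 ± 0.125 CPM in the triple-labelled libraries and 1.52 ± 0.0797 CPM in daf-2, and 4.67 ± 0.396 CPM in the spr double mutant and 2.22 ± 0.316 CPM in N2 (-2.54 ± 0.25 SE, edgeR adjusted p = 1.7e-07). rnh-1.3 averaged 37.1 ± 3.53 CPM in the triple-labelled libraries and 64.9 ± 3.86 CPM in daf-2, and 9.98 ± 2.21 CPM in the spr double mutant and 4.48 ± 0.359 CPM in N2 (-1.96 ± 0.18 SE, edgeR adjusted p = 3.7e-06). The rnh-1.3 levels of the triple-labelled libraries and the spr double mutant thus lay between those of daf-2 and N2.

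Several neuronal gene lists had more positive calls than the 14.1% of all genes, with modest values. Of 46 ion channel genes 18 were positive and 1 negative (median 0.41). Of 38 synaptic vesicle and release genes there were 13 and 1 (0.21), and of 48 acetylcholine genes 11 and 2 (0.36). The GABA genes, 3 and 0 of 14 with a median of 0.44, are too few to set apart from the share of all genes. The glutamate genes, 5 and 1 of 30 with a median of 0.14, were near the share of all genes. Summed ion channel levels were 219 to 227 CPM in the triple-labelled libraries, against 160 to 174 CPM in daf-2, and 228 to 231 CPM in the spr double mutant, against 200 to 204 CPM in N2. The daf-2 libraries were below the other 9 in 15 of the 46 ion channel genes, as in 6.6% of all genes. Defining neuronal markers summed to 239 to 266.7 CPM in the triple-labelled libraries and 220.3 to 227.5 CPM in daf-2, and to 200.2 to 222 CPM in the spr double mutant and 186.5 to 193.4 CPM in N2, and their part in these values was not tested.

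rab-3 (WBGene00004267, II, 5721767 to 5727853), the small GTPase of synaptic vesicles, had 5.73, 6.87 and 7.72 CPM in the triple-labelled libraries, against 3.32, 4.83 and 4.61 CPM in daf-2. It had 6.64, 5.37 and 6.27 CPM in the spr double mutant, against 7.74, 8.58 and 6.65 CPM in N2. The daf-2 libraries were below all others (interaction 1.01 ± 0.2 SE, edgeR adjusted p = 0.00082). Similar values were seen for the EAG potassium channel gene egl-2 (1.12), the Kv4 channel gene shl-1 (0.99), the AMPA receptor partner gene sol-1 (1.09), the acetylcholinesterase gene ace-3 (1.13) and the vesicular glutamate transporter gene eat-4 (0.75). The GABA receptor gene unc-49 averaged 17.7 ± 0.951 CPM in the triple-labelled libraries and 11 ± 0.579 CPM in daf-2, and 15.4 ± 0.923 CPM in the spr double mutant and 13.9 ± 0.323 CPM in N2 (0.53 ± 0.1 SE, edgeR adjusted p = 0.00051).

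The single negative synaptic gene and the single negative ion channel gene were both higher in the spr double mutant than in any other group. nab-1 (WBGene00003516, I, 4229570 to 4236115), the neurabin scaffold of the synapse, had 34.5, 34.8 and 32.6 CPM in the triple-labelled libraries, against 10.7, 11.3 and 12.3 CPM in daf-2. The spr double mutant had 81.3, 75.1 and 74.8 CPM, against 9.43, 9.52 and 9.71 CPM in N2. The spr double mutant was highest and the triple-labelled libraries were between it and the others. The rise was 1.57 log2 units in the daf-2 background and 3.01 with daf-2 intact (interaction -1.44 ± 0.086 SE, edgeR adjusted p = 1.7e-10). ccb-1, the beta subunit of voltage-gated calcium channels, averaged 10.4 ± 1.32 CPM in the triple-labelled libraries and 7 ± 0.392 CPM in daf-2, and 33.1 ± 0.895 CPM in the spr double mutant and 8.62 ± 0.201 CPM in N2 (-1.37 ± 0.12 SE, edgeR adjusted p = 3.7e-08). From the monoamine list, ser-4, a serotonin receptor gene, was called in the spr double mutant (0.84) and not in the daf-2 background (-0.19, edgeR adjusted p = 0.11), with an interaction of -1.02 ± 0.13 (SE, edgeR adjusted p = 5.2e-06).

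Peptide and amine signalling genes had few calls. Of 30 FMRFamide-like peptide genes 3 were positive and 1 negative (median 0.11), of 67 neuropeptide-like genes 5 and 3 (0.08) and of 36 monoamine genes 4 and 3 (0.13). These shares are near or below those of all genes. In FMRFamide-like genes 16 of 30 were called higher in the triple-labelled libraries than in daf-2 and 11 of 30 higher in the spr double mutant than in N2, with none called lower in either. Over all genes 26.1% and 24.6% were called higher in these comparisons, and 20.9% and 21.9% lower. flp-6 had the largest interaction, -0.48 ± 0.095 (SE, edgeR adjusted p = 0.00078).

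Cuticle, moulting and hedgehog-related genes included many that were highest in N2. Of 147 cuticle collagens 47 were positive (32.0%) and 26 negative (17.7%), with a median of 0.33. Over all genes 14.1% were positive and 14.6% negative, so the negative share of the collagens was near that of all genes. In 75 of the collagens the N2 libraries were above the other 9, as in 17.7% of all genes. Of 48 moulting genes 20 were positive and 5 negative (median 0.49), and of 41 hedgehog-related genes 13 and 2 (median 0.62). lpr-3 (WBGene00012261, X, 11057401 to 11059793), a lipocalin-related protein of the apical matrix, had 1.91, 2.71 and 2.49 CPM in the triple-labelled libraries, against 3.27, 2.43 and 3.75 CPM in daf-2. It had 1.75, 1.96 and 2.03 CPM in the spr double mutant, against 15.3, 14.9 and 12.1 CPM in N2. N2 was far above the other 3 groups, whose ranges met (interaction 2.45 ± 0.23 SE, edgeR adjusted p = 1.1e-07). qua-1, a hedgehog-related gene needed for moulting, averaged 1.03 ± 0.175 CPM in the triple-labelled libraries and 0.628 ± 0.253 CPM in daf-2, and 1.69 ± 0.163 CPM in the spr double mutant and 9.22 ± 1.1 CPM in N2 (3.16 ± 0.29 SE, edgeR adjusted p = 8.5e-08). lpr-6 (3.11), ptr-4 (2.82) and grd-10 (2.11) were further positive members. In collagens the scale mattered for the count: on linear CPM 76 were positive and 20 negative.

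Body tissue lists showed the same N2 lead in part. Over all genes 14.1% were positive and 14.6% negative. Of 23 pharynx genes 10 were positive and none negative (median 0.67), with summed levels of 132 ± 8.25 CPM in the triple-labelled libraries and 117 ± 2.07 CPM in daf-2, and 160 ± 9.28 CPM in the spr double mutant and 224 ± 5.82 CPM in N2. Of 35 muscle genes 10 were positive and 1 negative (median 0.12). The troponin T gene tnt-4 averaged 4.89 ± 0.6 CPM in the triple-labelled libraries and 4.19 ± 0.463 CPM in daf-2, and 6.6 ± 0.0612 CPM in the spr double mutant and 14.5 ± 1.93 CPM in N2 (1.36 ± 0.16 SE, edgeR adjusted p = 2.6e-06). Of 16 intestine genes 8 were positive and 2 negative (median 0.38). Among them pho-1, an intestinal acid phosphatase gene, had 1.33 ± 0.16 (SE, edgeR adjusted p = 9e-06), and the peptide transporter gene pept-1 averaged 12.1 ± 2 CPM in the triple-labelled libraries and 18.3 ± 2.59 CPM in daf-2, and 30.8 ± 2.29 CPM in the spr double mutant and 82.4 ± 7.63 CPM in N2 (0.82 ± 0.18 SE, edgeR adjusted p = 0.0052).

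Most called DAF-16 targets were negative. Of 35 tested genes that DAF-16 is known to raise, 13 were negative and 4 positive (median -0.27), against 14.6% and 14.1% of all genes. Even so, 18 of the 35 were called higher in the triple-labelled libraries than in daf-2, as were 26.1% of all genes. In the spr double mutant 25 of the 35 were called higher than in N2, as were 24.6% of all genes. dod-3 (WBGene00016052, V, 2730622 to 2731098) had 50.9, 53.4 and 56.4 CPM in the triple-labelled libraries, against 50.6, 49.4 and 44.4 CPM in daf-2. It had 8.4, 14.5 and 10.4 CPM in the spr double mutant, against 3.87, 3.73 and 4.17 CPM in N2. The triple-labelled and daf-2 libraries were high and the spr double mutant lay between them and N2 (interaction -1.35 ± 0.21 SE, edgeR adjusted p = 0.0007). On linear CPM the list had 10 positive and 5 negative members, and the ferritin gene ftn-1 (-1.03 on the log2 scale) gave 0.4972 CPM, not called. Of 18 tested genes listed as lowered through DAF-16, 6 were negative and 2 positive, with a median of -0.09 (0.04 under total-count scaling). In these data the list was not lowered as a set, since 8 were called higher and 7 lower in daf-2 than in N2.

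Insulin-like peptide genes, ligands of DAF-2, had 2 negative and 1 positive call among 29 tested, with a median of -0.11 (0.02 under total-count scaling). Both shares were below the 14.6% negative and 14.1% positive of all genes. ins-23 averaged 2.83 ± 0.38 CPM in the triple-labelled libraries and 3.27 ± 0.406 CPM in daf-2, and 0.824 ± 0.028 CPM in the spr double mutant and 0.226 ± 0.0757 CPM in N2 (-2.12 ± 0.33 SE, edgeR adjusted p = 6.7e-05). ins-10 had -1.51 and ins-4 had 0.63. In the small heat shock and HSP70 list 9 of 48 were negative and 8 positive, with a median of -0.04 (0.08 under total-count scaling). These shares, 18.8% and 16.7%, were near those of all genes. hsp-70 averaged 65.4 ± 7.52 CPM in the triple-labelled libraries and 27.6 ± 3.44 CPM in daf-2, and 24 ± 5.5 CPM in the spr double mutant and 4.84 ± 0.477 CPM in N2. Its interaction was -1.07 ± 0.26 (SE, edgeR adjusted p = 0.014), and 18.57 CPM as a difference of linear differences (adjusted p = 0.0302), so its sign depends on the scale.

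**Figure D5:**
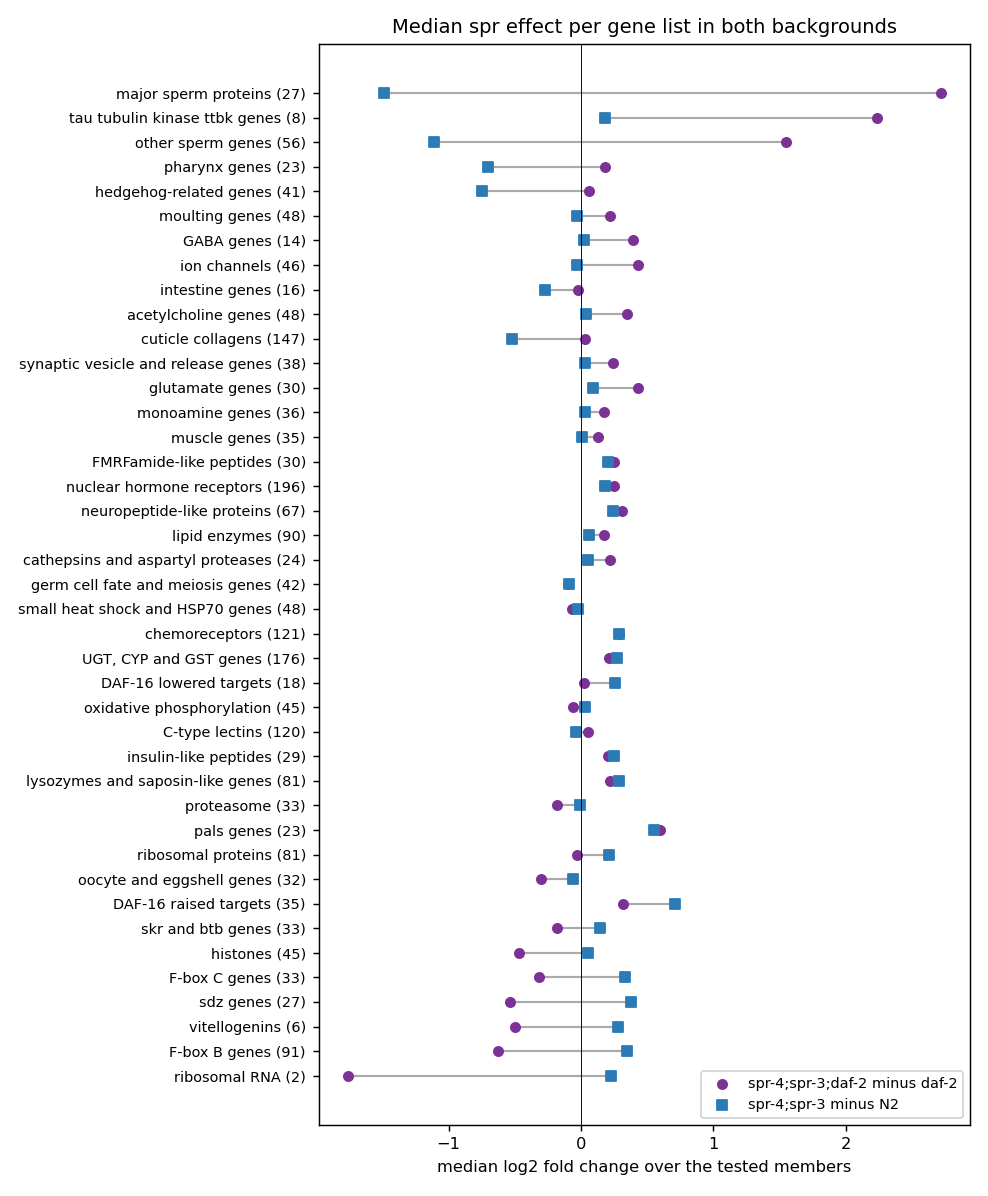
For each gene list, with its number of tested genes in brackets, the circle is the median log2 fold change of the triple-labelled libraries over daf-2 and the square that of the spr double mutant over N2. Lists run from the largest positive median interaction at the top (major sperm proteins, 4.28) to the most negative at the bottom (ribosomal RNA, -1.99).

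Defence and protease genes were mixed. Over all genes 14.6% were negative and 14.1% positive. Of 81 lysozyme, saposin-like and other antimicrobial genes 19 were negative and 10 positive, with a median of -0.17 (-0.11 with genes that have a group at 0 set to their floor of 3 counts over the group). On linear CPM 27 were positive and 8 negative. Of 120 C-type lectins 27 were negative (22.5%) and 22 positive (18.3%), with a median of -0.11 (0.01 under total-count scaling). clec-153 had 0 reads in the daf-2 libraries, so that no fold is given for it. Of 24 cathepsin and aspartyl protease genes 9 were negative and 6 positive (median 0.04). cpr-5 (WBGene00000785, V, 1132598 to 1134036), a cathepsin B-like gene, had 3.87, 3.57 and 3.76 CPM in the triple-labelled libraries, against 28.7, 26.8 and 32.5 CPM in daf-2, and 54, 50.1 and 60.3 CPM in the spr double mutant, against 149, 131 and 115 CPM in N2. All 4 groups were apart in the order seen for ilys-5 (interaction -1.71 ± 0.18 SE, edgeR adjusted p = 4.3e-05), and as there the sign was positive in linear CPM (51.2 CPM, adjusted p = 0.00593).

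Genes were last sorted by which group's 3 libraries all lay beyond the other 9. The daf-2 libraries were below the rest in 1040 genes (6.6%), of which 762 had a positive and 7 a negative interaction, and above the rest in 709 genes (4.5%), of which 402 were negative and 5 positive. The N2 libraries were above the rest in 2791 genes (17.7%), 1112 of them positive, and below in 2483 (15.8%), 909 of them negative. The triple-labelled libraries were above the rest in 2448 genes (15.5%) and below in 2115 (13.4%), with 443 positive and 197 negative interactions among those above and 75 positive and 628 negative among those below. The spr double mutant stood apart least often, above in 688 genes (4.36%) and below in 392 (2.49%). By chromosome, positive calls ran from 10.72% of tested genes on X to 16.66% on IV, and negative calls from 12.34% on X to 16.87% on III.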

How the data were processed

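The authors deposited a table of raw read counts, 1 row a gene, for 12 libraries made, per the labels' protocols, from 500 ng of total RNA with a stranded mRNA kit and read as 75 bp pairs. STAR, featureCounts 1.5.1 and the build WBcel235 are named in the submitters' processing notes. The version of STAR, the strand setting and how multiply matching reads were counted are not given in the sources used, so that near-identical, overlapping and antisense genes are uncertain. All 12 columns were matched to samples by name, and every row names a gene. The table lists 46739 genes, 21518 of them without reads. Names came from the annotation and the gene name table (43720 identifiers matched).

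Counts were analysed in R 4.3.3 with edgeR 4.0.16: filterByExpr (minimum count 10, leaving 15764 genes), TMM, 1 robust quasi-likelihood fit with 4 group means and 8 residual degrees of freedom, two-sided tests, and Benjamini-Hochberg adjustment over all genes, called below 0.05. Standard errors are the absolute log2 value divided by the square root of F. CPM values use TMM-scaled totals. With 30837773 to 48894725 counts a library, sampling error is small for all but the lowest genes, and replicates differed beyond it (chi-square per degree of freedom 3.61 to 17.978). The labels do not say what a shared replicate number marks, and the reported fit uses no pairing. Residual correlations of same-numbered libraries were -0.256 to 0.199, with no differently numbered libraries set beside them, so they do not exclude a pairing. p-values measure the spread between the samples labelled biological replicates.

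Members, the 36 gene lists and the naming rule were chosen with earlier results of these data known, and 5 families (F-box B, F-box C, sdz, ttbk, and skr with btb) were added after their values were seen. The pharynx list lost its pqn genes at that point too. Named genes are spr-3, spr-4, daf-2 and hop-1, the 12 largest called values in each direction (gene name, mean log2 CPM of at least 1, called in each fit without 1 library), up to 4 called genes of each list by size (2 of each added family), and 6 genes in each direction with opposite spr effects. A list is described by its counts and median. Alternatives were scaling by RLE factors or by totals, leaving out the low-count filter or asking for 1 CPM in 6 libraries, DESeq2 1.42.0, voom in limma 3.58.1, a test against a 1.5-fold change, additivity on linear CPM, the replicate number as a block, and leaving out each library. Steps were checked on simulated counts. Figures used matplotlib 3.10.9.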

Additional observations from a re-analysis of the deposited data

Results flagged for a closer look

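The difference between the triple-labelled libraries and daf-2 was unlike that between the spr double mutant and N2 in 4523 genes by edgeR's test of the interaction itself, which is what flagged the genes below. Their log2 interactions were 6.29 for col-41, 4.98 for ttbk-8.2, 4.89 for nspd-1, 4.79 for nspd-2, 4.75 for sqt-2 and 4.70 for msp-81. Further positive values were 4.65 for msd-4, 4.63 for msp-49, 4.62 for sss-1, 4.59 for msp-142, 4.51 for msp-64, 4.49 for msp-152 and 4.45 for msp-77. Negative values were -5.40 for ilys-5, -4.10 for col-183, -3.97 for icmt-1, -3.79 for pinn-4, -3.44 for dpy-14, -3.37 for col-161 and -2.97 for cls-3. Smaller negative values were -2.65 for col-50, -2.54 for sri-43, -2.44 for unc-38, -2.37 for saeg-2, -2.33 for rrn-3.1, -1.96 for rnh-1.3, -1.95 for fbxc-51, -1.74 for linc-6 and -1.63 for slc-17.9. That spr-3 was not lowered in the triple-labelled group touches every one of these values, and its part was not tested.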

How the results depend on the processing

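The number of called interactions, 4523, was 4499 with RLE factors, 4781 without a filter, 3546 with at least 1 CPM in 6 libraries, 4061 with DESeq2, 4456 with voom and 4316 with the replicate number as a block, a pairing that the labels do not explain. It was 3585 to 4780 with 1 library left out, lowest without N2 replicate 1 and highest without daf-2 replicate 3. Against a 1.5-fold change 970 genes passed, 737 positive and 233 negative. Total-count scaling gave 3632 positive and 1054 negative calls by moving the median of all genes. Of the genes with opposite spr effects, 264 were left of the 512 with at least 1 CPM in 6 libraries, where fewer genes are tested, and 127 of the 349 with total counts. On linear CPM 5032 genes were called, 2990 positive and 2042 negative, 4072 of them also on the log2 scale, 44 of these with the opposite sign. There the sign turned, with a call, for ilys-5 (145.3 CPM), cpr-5 (51.2), hsp-70 (18.57), pals-39 (4.398), pals-26 (3.985), col-50 (3.87), pals-27 (1.475) and ttbk-4 (-4.885), and without one for spp-12 (6.21), col-161 (4.219), icmt-1 (1.231), cpr-8 (0.5743), ftn-1 (0.4972), cnc-11 (0.1204), sdz-6 (0.114) and cyp-13A11 (0.07853). spr-4, uncalled throughout, ran from -0.006797 to 0.06941 with 1 library left out, lowest without triple-labelled replicate 1. No gene named changed direction where it was tested under RLE, total counts, either filter, DESeq2, voom, the block or the 1.5-fold test. With at least 1 CPM in 6 libraries only 129 of the 166 named genes were tested. Genes with under about 10 reads in a group have fitted values that depend on the prior count.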

Other observations

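Among stress and metabolic families not described above, the pals genes, several of them induced by intracellular pathogens, had 5 negative and 2 positive calls in 23 tested (median -0.20). pals-26 averaged 13.7 ± 0.988 CPM in the triple-labelled libraries and 7.66 ± 0.59 CPM in daf-2, and 2.41 ± 0.708 CPM in the spr double mutant and 0.373 ± 0.0515 CPM in N2, rising in both backgrounds (interaction -1.86 ± 0.26 SE, edgeR adjusted p = 2.4e-05, and 3.985 CPM on the linear scale). UGT, CYP and GST genes, which modify drugs and steroids, had 36 negative and 16 positive calls in 176 (median -0.06, 0.07 under total-count scaling), and on linear CPM 24 and 33. Of 90 lipid enzyme genes 22 were positive and 15 negative (median 0.05), with the acyl-CoA synthetase gene acs-10 at 3.12 and the acyl-CoA dehydrogenase gene acdh-8 at 3.17. Of 196 nuclear hormone receptor genes 22 were positive and 14 negative (median 0.09), below the 14.1% and 14.6% of all genes, and nhr-43 had -1.56 ± 0.15 (SE, edgeR adjusted p = 1.2e-07). Of 1316 chemoreceptor genes 121 were tested, 7 positive and 7 negative (median -0.06, 0.06 under total-count scaling), also below the shares of all genes. srh-16 averaged 1.83 ± 0.234 CPM in the triple-labelled libraries and 0.199 ± 0.0711 CPM in daf-2, and 0.438 ± 0.0893 CPM in the spr double mutant and 0.25 ± 0.0852 CPM in N2 (2.35 ± 0.47 SE, edgeR adjusted p = 0.00087).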
